A study of Mus musculus with 12 samples.

Results

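Lipoprotein lipase (Lpl), the proteins that restrain or anchor it, and the enzymes and transfer proteins that remodel lipoproteins were followed as a group of 9 mouse genes, Angptl4, Angptl8, Lpl, Lipc, Pltp, Lcat, Mttp, Vldlr and Gpihbp1. They are 9 of the 55357 gene identifiers in each of the count tables, 1 table for liver and 1 for cultured macrophages, and each symbol matched 1 identifier. The group was chosen from earlier results of the liver comparison, in which Angptl8 and Pltp had been seen to be lower with esculetin, so its liver values are a description and carry no test. The choice names no value of the cells, and those were tested.

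RNA was sequenced in 12 libraries, 3 in each of 4 groups. The liver groups came from wild-type (WT) male C57BL/6J mice of 8 to 9 weeks, fed for 4 days on a control diet, with 10% of its energy from fat, and then on a diet with 60% for 3 days. Over those 7 days they were gavaged with 90 mg/kg/d of esculetin, a plant coumarin, or with the vehicle that the labels name, 2.5% Tween-80. The study states that each liver sample pooled a pair of mice and that mice were not fasted. The cell groups were RAW264.7 cells, an established mouse macrophage line of WT genotype, exposed for 24 hours to 25 µg/mL of DiI-labelled oxidized low-density lipoprotein (DIL-oxLDL) with DMSO or with 40 µg/mL of esculetin, and no group lacked oxLDL. Nothing says whether the cell replicates were separate cultures, so p-values there measure the spread between these libraries, which may be technical.

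Lipoprotein lipase sits on the inner wall of capillaries and splits the triglyceride of chylomicrons and very-low-density lipoprotein (VLDL), so that fatty acids reach muscle, fat and macrophages. GPIHBP1, a protein of capillary endothelium, carries the enzyme to that place, and the angiopoietin-like proteins ANGPTL4 and ANGPTL8 restrain it. ANGPTL8 is made by liver and fat after feeding. Hepatic lipase (Lipc), phospholipid transfer protein (Pltp) and lecithin-cholesterol acyltransferase (Lcat) then reshape remnants and high-density lipoprotein (HDL), microsomal triglyceride transfer protein (Mttp) loads lipid onto apolipoprotein B as VLDL is assembled, and the VLDL receptor (Vldlr) takes up triglyceride-rich particles, mostly outside the liver.

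The sequence upstream of the start of the canonical transcript is shown for the genes whose levels stood apart, Angptl8 and Pltp in liver, and Lpl, which was higher with esculetin in the cells. It was read from GRCm39, 5′ to 3′ on the strand of the gene, in a window of 250 bases that ends at the base before the start, without bases that the annotation places in an exon of any transcript. The Angptl8 window, chr9:21746536-21746785 on the + strand, is whole and lies in an intron of Dock6, which is read from the opposite strand. The Pltp window, chr2:164699653-164699891 on the − strand, lacks 11 bases next to the start, and the Lpl window, chr8:69332996-69333142 on the + strand, lacks the 103 bases farthest from it, and both lie inside longer annotated transcripts of the same gene. Capitals mark matches on either strand to the motifs searched.
Angptl8: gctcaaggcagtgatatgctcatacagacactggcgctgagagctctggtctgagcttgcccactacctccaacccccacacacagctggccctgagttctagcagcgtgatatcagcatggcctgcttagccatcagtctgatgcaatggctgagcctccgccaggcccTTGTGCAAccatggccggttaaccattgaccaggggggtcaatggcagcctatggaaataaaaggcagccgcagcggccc
Pltp: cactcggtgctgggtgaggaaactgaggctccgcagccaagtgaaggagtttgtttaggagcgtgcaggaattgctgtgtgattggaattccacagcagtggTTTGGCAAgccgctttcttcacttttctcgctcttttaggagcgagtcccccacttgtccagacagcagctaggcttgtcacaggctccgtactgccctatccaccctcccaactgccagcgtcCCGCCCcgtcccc
Lpl: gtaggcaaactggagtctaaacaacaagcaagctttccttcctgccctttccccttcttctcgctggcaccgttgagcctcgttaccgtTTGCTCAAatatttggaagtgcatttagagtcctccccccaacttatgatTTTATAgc

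The 6 motifs searched were a C/EBP site, a nuclear receptor half-site, an E-box, a sterol regulatory element, a GC box and a TATA box, and no match overlapped another. The C/EBP site, TTGCNNAA, was found from 80 to 73 bases upstream of the start in Angptl8, from 148 to 141 in Pltp and from 58 to 51 in Lpl, and in none of the other 6 genes. It was present in 9.34% of the 21751 whole windows of protein-coding genes. The GC box, GGGCGG, matched from 24 to 19 bases upstream in Pltp, and also in Lipc and Vldlr, against 36.3% of all windows. The TATA box, TATAAA, matched in Lpl on the opposite strand, from 8 to 3 bases upstream (11.9% of all windows). The half-site, AGGTCA, was present in Lipc and Mttp (13.1% of all windows). The E-box, CACGTG, was in none of the 9 (6.27% of all windows). Nor was the sterol element, TCACNCCAC (1.12%). A match describes these letters in this window and says nothing of binding. The motifs were chosen with earlier results of these data known, and the genes shown were picked by their levels. Nothing is therefore read from which genes hold a motif.

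Total counts ran from 14659876 to 20346460 in the liver libraries and from 13752842 to 20001959 in those of the cells. Levels are CPM, the counts scaled to library size with TMM factors that lay between 0.95 and 1.11, the last in control liver replicate 1. In liver, the 8 hepatocyte markers summed to between 107000 and 125000 CPM in the controls and between 96700 and 121000 with esculetin, whereas in the cells 5 of them had no count and the sum reached at most 0.415 CPM. The RAW264.7 cells had 9 of the 10 macrophage markers, with sums over the list of 2680 to 2880 CPM in the controls and 5440 to 8070 with esculetin, but had at most 6 counts of Mrc1, the other marker, in any library, lacked Timd4 and nearly lacked Clec4f, Vsig4 and Marco of the Kupffer cell list.

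All 9 genes passed the filter on low counts in liver. The libraries of both groups did not overlap for 4 of the 9, Angptl8, Pltp, Mttp and Vldlr, each lower with esculetin. Among all 12813 genes tested in liver 14.5% did not overlap, but nothing is read from the count of 4, since the choice of the group used this contrast. The median log2 fold change of the 9 was -0.05, and that of all tested genes was -0.02.

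Among the inhibitors of lipoprotein lipase, Angptl8 (ENSMUSG00000047822, chr9:21746786-21748643) had 66.2, 47.8 and 43.1 CPM in the control livers and 13.2, 18.4 and 18.2 CPM in the esculetin livers. Every esculetin library lay far below every control, and control replicate 1 was the highest. The mean went from 52.4 ± 12.2 CPM with vehicle down to 16.6 ± 2.91 CPM (SD, n = 3 each), a level 3.16-fold lower (log2 fold change -1.66, SE 0.18). In whole liver RNA, fewer cells of a type and less RNA per cell cannot be told apart.

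Angptl4 (ENSMUSG00000002289, chr17:33992724-34000804), the inhibitor that fasting induces in fat, had 66.5, 115.6 and 96.7 CPM in the control livers and 86.9, 111.8 and 115.0 CPM with esculetin. The groups overlapped, and control replicate 1, highest for Angptl8, was lowest here (log2 fold change 0.17, SE 0.18).

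Within a library scaling cancels. Per count of Angptl4, the controls held 0.996, 0.413 and 0.446 counts of Angptl8, and the esculetin livers held 0.152, 0.164 and 0.158. The esculetin libraries were therefore close to each other on this ratio (mean 0.158, SD 0.006), while the controls spread widely (mean 0.618, SD 0.328).

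Lpl itself (ENSMUSG00000015568, chr8:69284603-69360100) had 17.0, 11.1 and 11.9 CPM in the control livers and 15.7, 9.15 and 13.5 CPM with esculetin. The groups overlapped, with a log2 fold change of -0.05 (SE 0.22) and coefficients of variation of 24.1% and 26.2%. The value turned to 0.16 without control replicate 1 and to -0.25 without esculetin replicate 1. Lpl is abundant in fat, and the 6 adipocyte markers all had a higher mean with esculetin, with sums of 11.7 to 38.8 CPM in the controls and 12.5 to 53.1 CPM with esculetin. Adipoq, which fat cells make almost alone, had 0, 0.247 and 0.175 CPM in the controls and 1.36, 0.260 and 3.75 CPM with esculetin. Esculetin replicates 1 and 3, higher in Adipoq, were also higher in Lpl than replicate 2, while control replicate 1 had the most Lpl and no Adipoq count; the part of fat cells in the Lpl level was not tested.

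Gpihbp1 (ENSMUSG00000022579, chr15:75468474-75471331), the capillary anchor of the enzyme, had 19.8, 23.2 and 28.1 CPM in the control livers and 25.0, 30.8 and 23.8 CPM with esculetin (log2 fold change 0.16, SE 0.16), and the groups overlapped. The 7 endothelial markers summed to 171 to 190 CPM and 182 to 187 CPM in the same order. Lipc (ENSMUSG00000032207, chr9:70705410-70859508), whose product works on the walls of liver sinusoids, had 177.1, 210.9 and 203.1 CPM against 222.0, 234.9 and 207.6 CPM. These groups overlapped too, since the lowest esculetin value lay under the highest control (log2 fold change 0.17, SE 0.12).

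The genes of HDL remodelling differed from each other. Pltp (ENSMUSG00000017754, chr2:164677702-164701743) had 72.0, 70.8 and 72.4 CPM in the control livers and 27.4, 40.8 and 29.7 CPM with esculetin. The controls were nearly identical, with a coefficient of variation of 1.17%, the smallest of the 9 genes, and every esculetin library was far below them. The mean was 71.7 ± 0.839 CPM with vehicle and 32.6 ± 7.20 CPM with esculetin (SD, n = 3 each) (log2 fold change -1.14, SE 0.15). Lcat (ENSMUSG00000035237, chr8:106665839-106670046), which turns free cholesterol of HDL into ester, had 345.5, 424.5 and 375.5 CPM against 377.4, 422.1 and 426.8 CPM. Its groups overlapped (log2 fold change 0.10, SE 0.13). Per count of Lcat, the control livers held 0.208, 0.167 and 0.193 counts of Pltp and the esculetin livers 0.0725, 0.0968 and 0.0696.

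Of the exon bases of Pltp, 21.2% (1252 of 5897) are shared with Ctsa, a lysosomal protease gene on the opposite strand, and without stated strandedness reads there cannot be assigned to one of them. Ctsa had 114.3, 135.0 and 139.6 CPM in the control livers and 125.9, 126.9 and 128.3 CPM with esculetin, which differ by -0.03 on the log2 scale (SE 0.12, edgeR adjusted p 0.964). Macrophages also make Pltp, and the Kupffer cell and macrophage lists, which share Adgre1 and Csf1r, were on the lower side in the same livers. Of the 7 Kupffer cell markers 6 had a lower mean with esculetin, with sums of 348 to 400 CPM in the controls and 314 to 356 CPM with esculetin, and of the 10 macrophage markers 9 did, with sums of 199 to 239 and 192 to 211 CPM. None of these markers was at 0 in liver, edgeR called none of them, and their part in the Pltp level was not tested.

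Mttp (ENSMUSG00000028158, chr3:137795612-137850729), needed for VLDL assembly, had 303.6, 297.6 and 246.6 CPM in the control livers and 237.9, 219.2 and 205.3 CPM with esculetin. The groups did not overlap, by a narrow margin between control replicate 3 and esculetin replicate 1, and the log2 fold change was -0.36 (SE 0.13). Of its exon bases 10.9% are shared with Trmt10a on the opposite strand, which had at most 3.00 CPM in any liver library. Vldlr (ENSMUSG00000024924, chr19:27193862-27231631) was scarce, with 35, 33 and 21 counts (2.15, 1.63 and 1.22 CPM) in the control livers and 12, 16 and 11 counts (0.654, 1.04 and 0.712 CPM) with esculetin. Its groups did not overlap, and the log2 fold change of -1.05 had the largest standard error of the 9, 0.38.

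**Figure D1:**
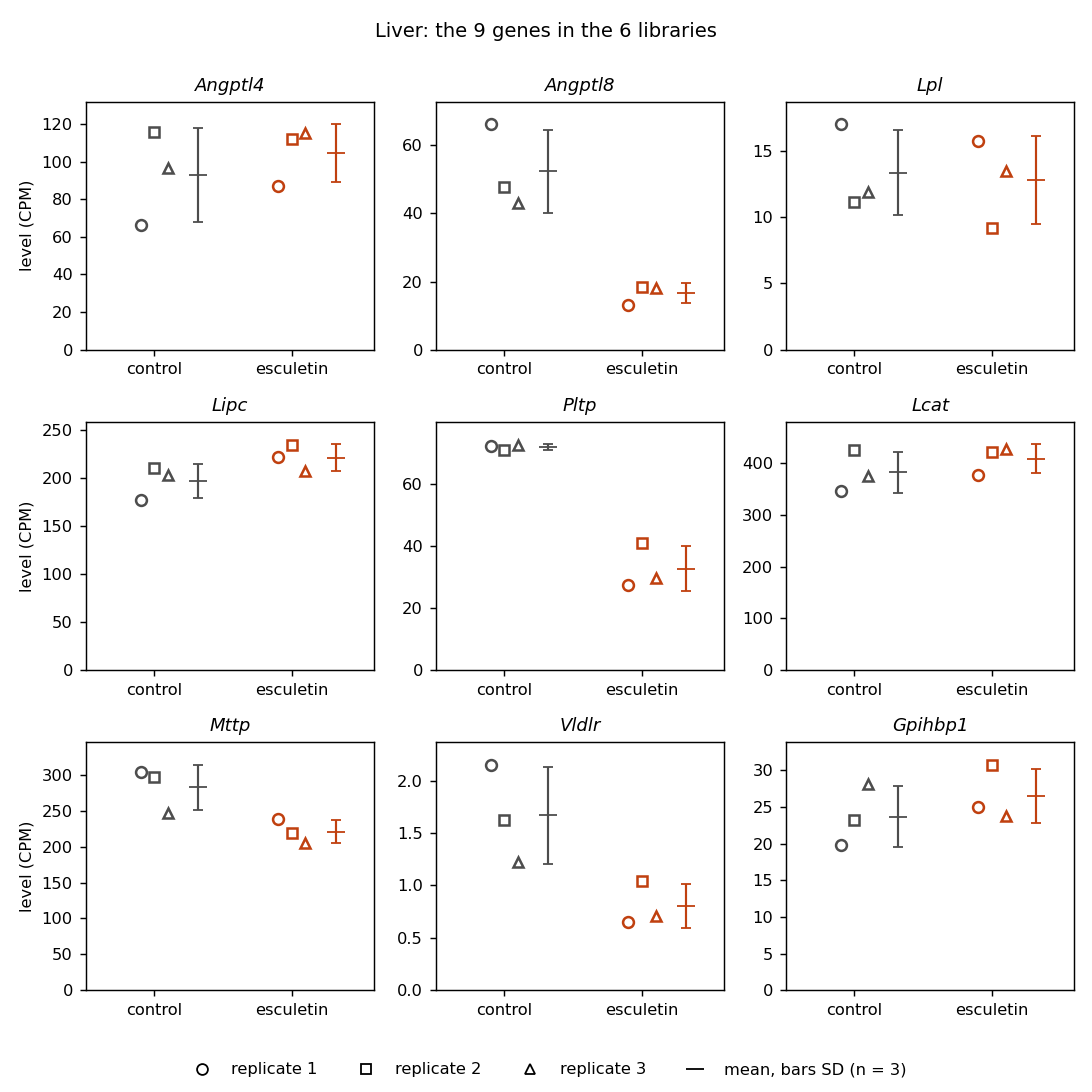
Level in CPM (vertical axis of each panel, from 0) of the 9 genes in the 3 control and 3 esculetin liver libraries; open symbols are libraries, horizontal marks the means and bars the SD. Angptl8 (43.1 to 66.2 against 13.2 to 18.4 CPM) and Pltp (70.8 to 72.4 against 27.4 to 40.8 CPM) have the widest gaps between groups, Mttp and Vldlr have narrow ones, and the other 5 genes overlap.

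In the RAW264.7 cells 5 of the 9 genes passed the filter, Lpl, Pltp, Mttp, Angptl4 and Lcat. Of the first 4, edgeR called Lpl higher and Pltp lower. In this comparison it called 57.7% of all 13277 tested genes, 28.7% higher and 29.0% lower, so a call is no rare event here. Lcat passed only through the group in which it was higher, and its values are given as a description.

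Lpl was by far the most abundant of the group in the cells and ranked 86 of the 13277 tested genes by mean CPM in the controls. It had 1157, 1039 and 976 CPM with DMSO and 1436, 1673 and 1463 CPM with esculetin, so that the lowest esculetin library exceeded the highest control. The mean rose from 1058 ± 92.2 to 1524 ± 130 CPM (SD, n = 3), which is 1.44-fold (log2 fold change 0.53, SE 0.10, 95% interval 0.30 to 0.75, edgeR adjusted p 0.00106). Lpl kept this call in all 14 alternative fits, with log2 fold changes from 0.45 to 0.59 and adjusted p from 2.68e-07 to 0.0123 across edgeR, DESeq2 and limma-voom, but lies under the study's limit of 1.5-fold. Of the macrophage marker list, to which Lpl does not belong, 6 of 9 tested genes were called higher and 0 lower. Of all tested genes 28.7% were called higher and 29.0% lower. Lyz2 changed most (599.7 to 682.6 CPM in the controls and 2584 to 4704 CPM with esculetin). Cd68, Tyrobp and Ptprc were not called, and Ptprc had a lower mean with esculetin (157.1 against 189.3 CPM). The part of these markers in the Lpl level was not tested.

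Pltp had 83.0, 96.1 and 97.1 CPM in the control cells and 60.5, 57.1 and 53.1 CPM with esculetin. All 3 esculetin libraries were below all 3 controls, and both groups were tight, with coefficients of variation of 8.56% and 6.43%. The mean fell from 92.1 ± 7.88 to 56.9 ± 3.66 CPM, 1.62-fold lower (log2 fold change -0.69, SE 0.09, 95% interval -0.90 to -0.49, edgeR adjusted p 8.65e-05). All 14 alternative fits called it, with adjusted p from 4.81e-11 to 0.00112 across edgeR, DESeq2 and limma-voom. Ctsa, which shares exon bases with Pltp, was far more abundant here, at 1464, 1691 and 1560 CPM against 1591, 1559 and 1440 CPM, a difference of -0.04 on the log2 scale (SE 0.10, edgeR adjusted p 0.745). Without esculetin a library held 13.9, 10.8 and 10.1 counts of Lpl per count of Pltp, and with esculetin 23.7, 29.3 and 27.5.

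Lcat was near the limit of detection in the cells, with 12, 4 and 4 counts with DMSO and 13, 13 and 21 counts with esculetin (0.622, 0.215 and 0.195 CPM against 0.951, 0.886 and 1.17 CPM). A count of 3, taken as the floor, is worth 0.150 to 0.218 CPM in these libraries. The groups did not overlap in CPM, although control replicate 1 had nearly as many counts as esculetin replicates 1 and 2. The gene entered the fit only through the esculetin group, so no p is given. At a filter of 1 CPM it was not tested.

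Mttp had 9.07, 9.20 and 10.4 CPM with DMSO and 10.8, 8.86 and 9.43 CPM with esculetin, and Angptl4 had 2.85, 2.47 and 2.09 against 2.41, 3.13 and 2.56 CPM. Both pairs of groups overlapped. The log2 fold change of Mttp was 0.02 (95% interval -0.30 to 0.34, edgeR adjusted p 0.906), and its sign turned under 4 of 14 alternatives. For Angptl4 it was 0.13 (95% interval -0.42 to 0.68, edgeR adjusted p 0.677). For Angptl4 the interval leaves room for a change as large as that of Lpl, and for Mttp it does not reach it. Trmt10a, the overlapping partner of Mttp, was at 22.2 to 25.9 CPM in the control cells and 14.7 to 17.3 CPM with esculetin, above Mttp in every library. EdgeR called Trmt10a lower (log2 fold change -0.53, SE 0.12, adjusted p 0.00315), so the counts of Mttp in the cells are uncertain.

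The other 4 genes were not tested in the cells. Angptl8 had 0, 0 and 2 counts with DMSO and 3, 1 and 2 with esculetin, all at or under the floor of 3 counts, so no fold change is given. Lipc had 8, 8 and 1 counts against 9, 1 and 3. Vldlr and Gpihbp1 had 0 counts in all 6 libraries, which allows at most 0.218 CPM in the shallowest of them. These limits cover counting error only.

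**Figure D2:**
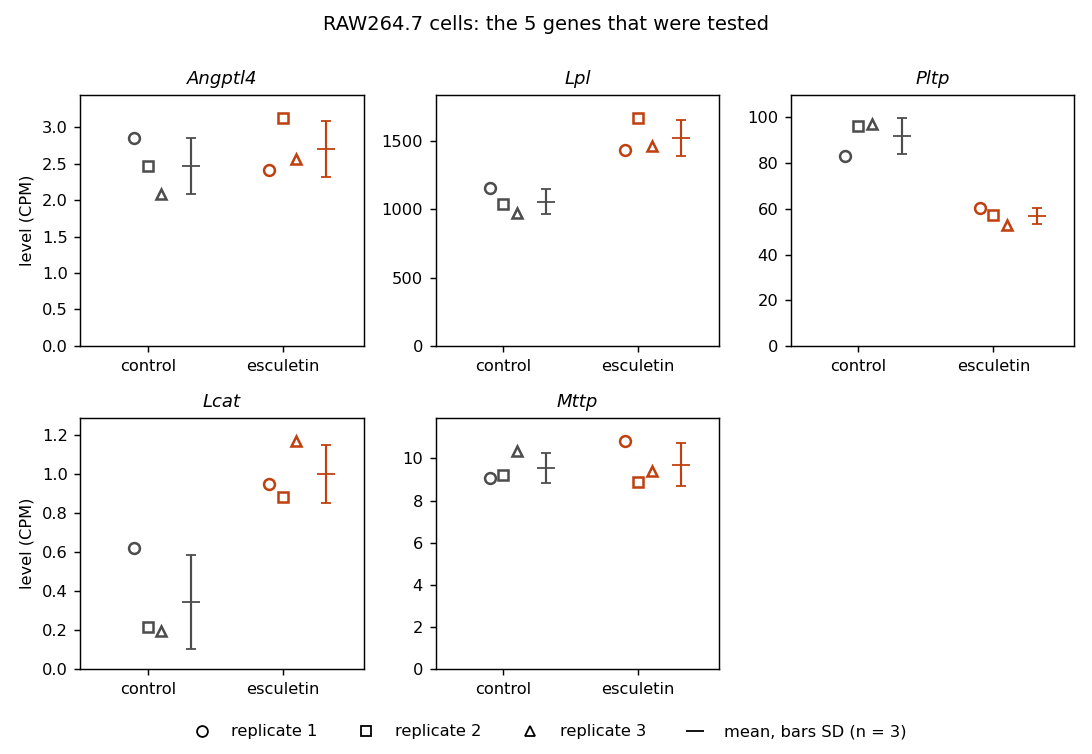
Level in CPM (vertical axis of each panel, from 0) of the 5 tested genes in the 3 control and 3 esculetin libraries of RAW264.7 cells, drawn as in the plot of the liver levels. Lpl (976 to 1157 against 1436 to 1673 CPM) and Pltp (83.0 to 97.1 against 53.1 to 60.5 CPM) separate by group, Lcat separates at levels near the floor, and Angptl4 and Mttp overlap.

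Per kilobase of the canonical transcript, which allows levels of different genes to be compared, the control livers had 222.3 ± 23.2 CPM of Lcat, 102.6 ± 9.22 of Lipc, 71.3 ± 7.90 of Mttp, 59.2 ± 13.8 of Angptl8 and 39.4 ± 0.461 of Pltp (SD, n = 3). Gpihbp1 followed with 28.6 ± 5.06, Angptl4 with 28.1 ± 7.49, Lpl with 3.24 ± 0.780 and Vldlr with 0.203 ± 0.0564 CPM per kilobase. Of the neighbours in this order, Mttp and Angptl8, and Gpihbp1 and Angptl4, had overlapping libraries, and the others did not. With esculetin the mean of Angptl8 was 18.8 ± 3.29 and that of Pltp 17.9 ± 3.96 CPM per kilobase, both under Gpihbp1 (32.0 ± 4.50) and Angptl4 (31.6 ± 4.65), although in the controls both were above them. With the length of all exons merged, Angptl8 stayed above Gpihbp1 with esculetin (17.5 against 10.4), and Pltp was under Angptl4 already in the controls (12.2 against 20.7).

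The control cells held 257.0 ± 22.4 CPM of Lpl per kilobase, 50.6 ± 4.33 of Pltp, 2.41 ± 0.179 of Mttp and 0.747 ± 0.115 of Angptl4, with Lcat, Lipc and Angptl8 at or under 0.200 on average. Lpl made up 82.6% of the summed level of the 9 genes per kilobase and Pltp 16.3%. In the control livers Lpl made up 0.584%, Pltp 7.11% and Lcat 40.1%. With the length of all exons merged, the liver shares were lower for Lpl (0.247%) and Pltp (2.75%) and higher for Lcat (49.8%), and those of the cells were 82.9% for Lpl and 15.0% for Pltp. The tables were scaled separately, so these levels are set side by side without a test.

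**Figure D3:**
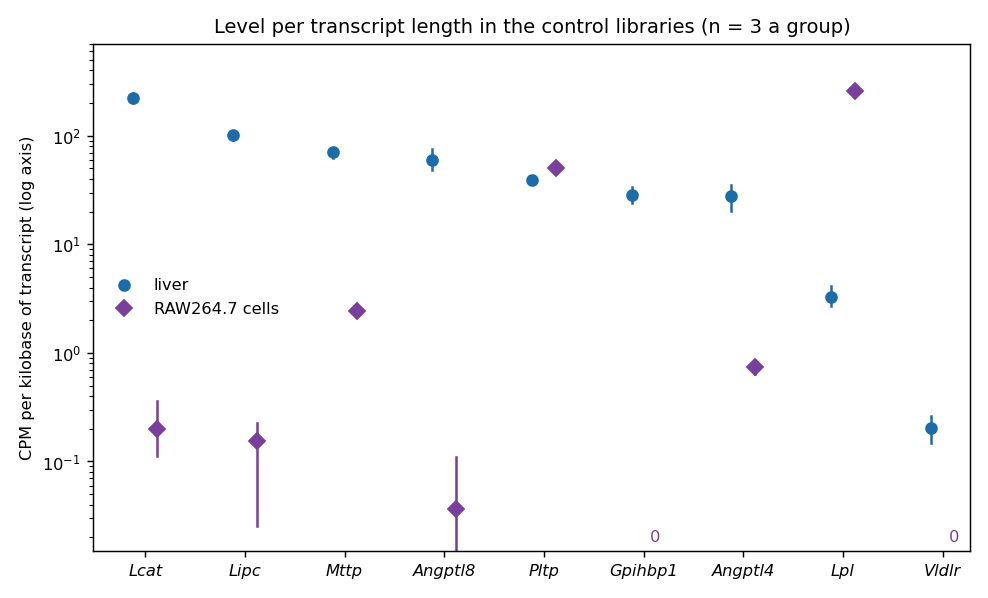
Level in the control libraries as CPM per kilobase of canonical transcript (log axis) for liver (circles) and RAW264.7 cells (diamonds), ordered by the liver level; symbols are means and lines run from the lowest to the highest of 3 libraries. The line of Angptl8 in cells ends at the lower edge because 2 of its libraries were at 0, and a printed 0 marks Vldlr and Gpihbp1 in cells; Lpl is the lowest but one in liver and the highest in cells.

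Set side by side, the log2 fold change with esculetin was -1.14 (SE 0.15) in liver and -0.69 (SE 0.09) in the cells for Pltp, and -0.05 (SE 0.22) and 0.53 (SE 0.10) for Lpl. It was -0.36 (SE 0.13) and 0.02 (SE 0.15) for Mttp, 0.10 (SE 0.13) and 1.54 (SE 0.51, from few counts) for Lcat, and 0.17 (SE 0.18) and 0.13 (SE 0.25) for Angptl4. The difference between tables was not tested, since liver values chose the group, and dose, route and duration also differed.

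**Figure D4:**
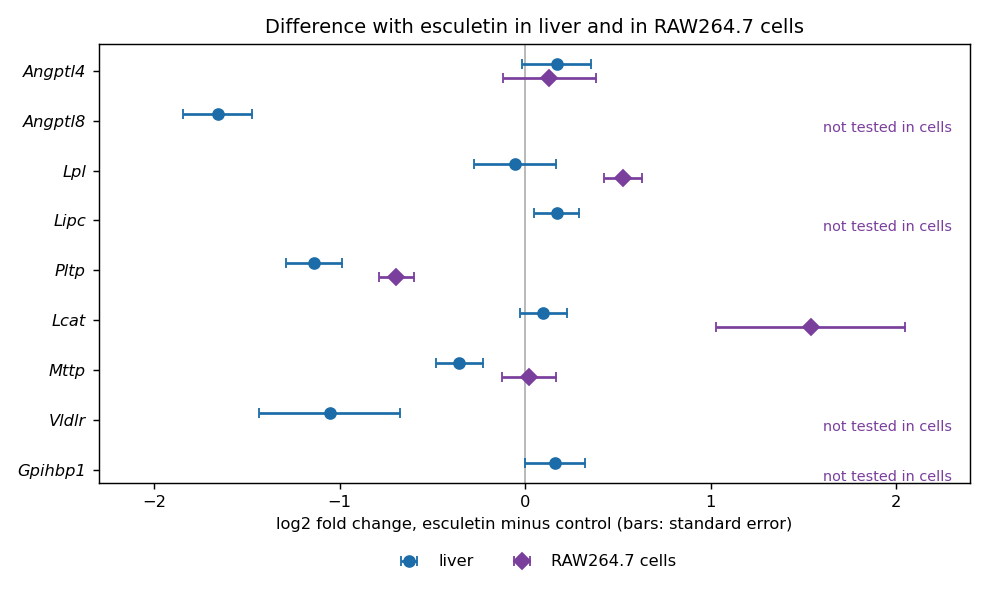
Log2 fold change, esculetin minus control (horizontal axis), of the 9 genes in liver (circles) and in RAW264.7 cells (diamonds), with the standard error as bars. Pltp lies below 0 in both, at -1.14 and -0.69, Angptl8 at -1.66 in liver has no value in the cells, and Lpl is near 0 in liver and at 0.53 in the cells.

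The rest of the pathway was followed in 51 further genes in 5 lists, and of these edgeR tested 49 in liver and called 0 (adjusted p under 0.05), where it called 0.0859% of all 12813 tested genes. At an unadjusted edgeR p under 0.05 there were 8 of the 49, beside 8.37% of all tested genes, DESeq2 called 1 and limma-voom 0, and the median log2 fold change was -0.03. Among the remnant receptor genes, Mylip, a ubiquitin ligase, had 7.62, 9.42 and 7.46 CPM in the controls and 9.97, 11.3 and 10.9 CPM with esculetin (log2 fold change 0.39, SE 0.17, edgeR adjusted p 0.559).

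Of the regulators Nr1h4, the bile acid receptor, had 113.1, 112.6 and 116.5 CPM against 80.8, 89.5 and 84.9 CPM in liver, groups that did not overlap (log2 fold change -0.42, edgeR adjusted p 0.269), and Mlxipl, a glucose-responsive factor, had -0.50 (0.597). The smallest p of the genes that modify lipoprotein lipase were those of Pcsk5 (-0.62, edgeR adjusted p 0.491), a convertase, and Sel1l (-0.33, 0.510), needed for the lipase to leave the endoplasmic reticulum. Among HDL genes they were those of Scarb1 (0.36, edgeR adjusted p 0.478), the HDL receptor, and Apom (0.19, 0.750). Among VLDL assembly genes they were those of Tm6sf2 (-0.52, edgeR adjusted p 0.486) and Mia3 (-0.34, 0.636).

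In the cells 31 of the 51 genes were tested and 19 were called, 8 higher and 11 lower, a share of 61.3% beside the 57.7% of all tested genes. Of the 12 genes that modify lipoprotein lipase, 5 were tested and 4 called. Lmf1, which folds the lipase, went from 38.1, 38.7 and 38.3 to 43.0, 52.3 and 44.9 CPM (log2 fold change 0.29, edgeR adjusted p 0.0315), and Sel1l rose with it (0.28, 0.0337). Both lost the call by library size only, without a filter and without any 1 of the controls or esculetin replicate 2, and Sel1l also without esculetin replicate 3. Sdc1, a heparan sulfate proteoglycan that binds lipoproteins, fell from 24.0, 20.9 and 23.0 to 9.59, 10.7 and 7.98 CPM (log2 fold change -1.27, edgeR adjusted p 1.73e-05), and Lmf2 fell by 0.62 (edgeR adjusted p 0.000624). The apolipoprotein genes of this list, Apoa5, Apoc1, Apoc2 and Apoc3, were at or under 0.146 CPM in every cell library.

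Of the 10 HDL genes, 5 were tested and 3 called (60.0%, beside 57.7% of all tested genes). Abcg1, which exports cholesterol to HDL, fell from 88.4, 77.6 and 82.3 to 29.9, 28.6 and 23.7 CPM (log2 fold change -1.60, edgeR adjusted p 6.44e-07), Scarb1 fell by 1.01 (1.97e-06), and Pon3, a paraoxonase carried on HDL, rose from 18.2, 17.5 and 18.1 to 60.1, 66.9 and 63.0 CPM (log2 fold change 1.82, 1.55e-07). No library of one group reached the other in these 3 genes, and how often this held over all tested genes of the cells was not counted. Pltp, Abcg1 and Scarb1 were each lower and Pon3 was higher in the cells, and a link between these genes was not tested.

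Of the remnant receptor genes, 5 of 8 tested were called, 1 higher and 4 lower. That is 62.5%, beside 57.7% of all tested genes, of which 28.7% were called higher and 29.0% lower. Lrp1, the endocytic receptor for remnants, rose from 2098, 2326 and 2184 to 3417, 3430 and 3695 CPM (log2 fold change 0.67, edgeR adjusted p 0.000101), whereas Apoe, its ligand, fell from 10.6, 11.3 and 8.76 to 6.81, 4.09 and 3.96 CPM (-1.06, 0.00165). Mylip fell by 1.21 on the log2 scale (edgeR adjusted p 7.72e-05).

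Of the VLDL assembly genes, 4 of 7 tested were called (57.1%, beside 57.7% of all tested genes). Apobec1, Mia2 and Mia3 were higher by 0.70, 0.84 and 0.74 on the log2 scale (edgeR adjusted p 2.49e-05, 5.56e-05 and 0.000278). Sort1, a sorting receptor, was lower (-0.38, edgeR adjusted p 0.00319). Of the exon bases of Mia3, 35.2% are shared with Aida, and of those of Sort1, 21.4% with Gm12522, both on the opposite strand, so these counts are uncertain. Apob, the protein that Mttp lipidates, had counts in 1 of the 6 cell libraries (0.146 CPM). Among the regulators, 3 of 6 tested were called. Nr1h2, which encodes LXRβ, rose by 0.50 (edgeR adjusted p 0.000488), and Ppard (-0.41, 0.00274) and Srebf1 (-0.31, 0.0186) fell, the last without its call when control replicate 2 or 3 or esculetin replicate 1 or 2 was left out. Nr1h3, Rxra and Nr3c1 were tested and not called.

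**Figure D5:**
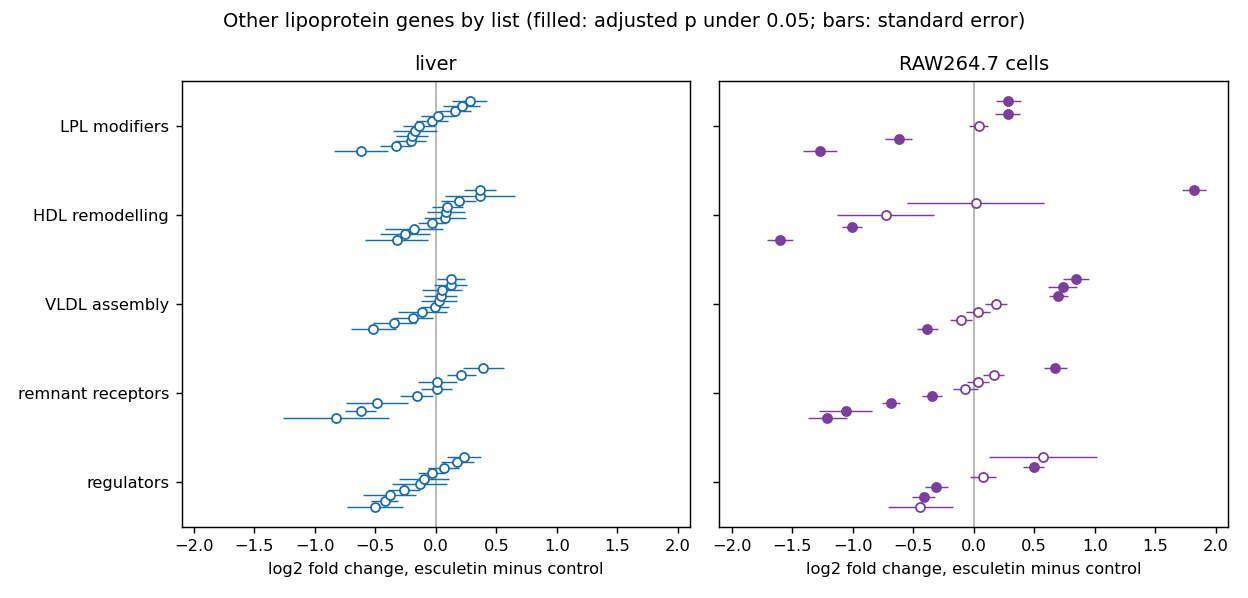
Log2 fold change, esculetin minus control (horizontal axis), of each tested gene of the 5 lists (rows) in liver (left, 49 genes) and RAW264.7 cells (right, 31 genes), with standard errors as bars; filled circles have an edgeR adjusted p under 0.05. No circle is filled in liver, and in cells 8 are filled to the right of 0 and 11 to the left.

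The liver genes whose pattern was most like that of Angptl8 and Pltp were sought by Pearson's r of log2 CPM over the 6 liver libraries, among genes with a mean of at least 10 CPM. For Pltp they were Scd1 (r = 0.992), a fatty acid desaturase that averaged 9520 CPM in the controls and 4490 with esculetin, then Nr1h4 (0.991), Ugt1a5 (0.987), Iqgap1 (0.985) and Hspg2 (0.982). For Angptl8 they were Xylb (r = 0.985), E2f4 (0.985), Pex26 (0.985), Mapk15 (0.984) and Slc16a1 (0.981). Pltp and Angptl8 had r = 0.953 with each other, place 23 of 6758 in the order of Angptl8 and place 25 in that of Pltp. The points are 6 libraries in 2 treatment groups, so a gene that is lower in the esculetin libraries can score high without any other link. An r over 0.9 was held by 117 genes with Angptl8 and by 86 with Pltp.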

How the data were processed

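RNA-seq libraries from mouse liver and RAW264.7 cells were analysed from the raw counts per gene locus that the authors deposited, 1 table for each. Per the study, RNA was extracted with Trizol, libraries were made with the NEBNext Ultra RNA kit and sequenced as paired ends, and reads were aligned to GRCm39. The submitters' processing notes name HISAT2 2.2.1 and featureCounts. The annotation release, strandedness, RNA selection and treatment of multi-mapping reads are not given in the sources used here. All 12 sample columns were used.

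Symbols, coordinates, transcript lengths and upstream windows came from GENCODE on GRCm39, in which 54749 of 55357 identifiers matched and 608 did not. The quasi-likelihood test of edgeR 4.0.16 (R 4.3.3) was run on either table by itself, with TMM factors, filterByExpr at a minimum count of 10 and a model of treatment alone. Two-sided p-values received a Benjamini-Hochberg adjustment across the whole table, and those under 0.05 were called. The SE divides the absolute log2 fold change by the root of its F statistic. An exact permutation of 3 against 3 libraries cannot go below p = 0.1. The fit was also run on counts simulated from the means and spreads of these same libraries, and no outcome of that run is given here. Alternatives were RLE, upper quartile and library-size scaling, no filter or 1 CPM in 3 libraries, DESeq2 1.42.0, limma-voom (limma 3.58.1), the study's criterion (unadjusted p under 0.05 and over 1.5-fold) in limma-voom, a replicate block, and each library left out. Levels per kilobase with the exon union in place of the canonical transcript were added after seeing the data.

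The 9 genes, the pathway and marker lists and the motifs were chosen with earlier results of these data known. Named were all 9 genes, up to 4 called genes of a pathway list with the smallest p (2 where none was called), 5 genes like Angptl8 and 5 like Pltp, and markers. Apob, the overlapping Ctsa and Trmt10a, Dock6, and the genes named as not called or at low counts were added after their values were seen. Results of some genes of the pathway lists are not reported here, though the counts over the lists include them.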

Additional observations from a re-analysis of the deposited data

How the results depend on the processing

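In the cells Lpl and Pltp kept direction and call in all 14 fits. The log2 fold change of Lcat ran from 1.26 to 2.26 over 13 alternative fits. It is a description, since the gene passed the filter only through the group where it is high. The count of genes called in the cells stayed within 1.5 times of 7667 (6518 to 7910 with a library left out), except 5041 by the study's criterion. The log2 fold change of Mttp there turned to -0.044 when scaled by library size only, to -0.0231 without a filter, and to -0.0172 and -0.0616 without control or esculetin replicate 1 (range -0.0616 to 0.0950 over libraries left out). The liver count of 11 was 0 with library sizes as the scale, 339 when no genes were filtered, 98 with DESeq2, 499 by the study's criterion and 0 to 31 with a library left out (0 without control replicate 2, esculetin replicate 1 or 3). The liver pathway lists had 3 genes called without a filter, among them Mlxipl and Apoc2, which shares 41.6% of its exon bases with Apoc2l, 1 with DESeq2, 2 by the study's criterion, among them Pcsk5, and 0 to 1 with a library left out. The cause was not tested. As a description, the liver log2 fold changes ran over the 14 fits from -1.80 to -1.45 for Angptl8 and from -1.34 to -1.04 for Pltp. Those of Angptl4 (-0.02 to 0.36) and Lpl (-0.25 to 0.16) took both signs. The choice of the group used these same libraries, so the ranges are no support for it.

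Same-numbered samples deviated together with correlations of 0.15, -0.01 and 0.11 in liver and 0.19, -0.04 and 0.11 in the cells, so the numbers were not taken to pair them. A replicate block gave 123 calls in liver and 7982 in the cells, 1 call in the liver pathway lists, and changed no call of Lpl, Pltp, Mttp or Angptl4 in the cells.

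With exon-union lengths the order of the control livers was Lcat, Lipc, Angptl8, Mttp, Angptl4, Pltp, Gpihbp1, Lpl and Vldlr. The order in the control cells was the same with either length. Counts limit Vldlr in liver (at most 35) and Lcat in the cells (at most 21).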

Other observations

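The remaining marker lists were counted as values. The 6 stellate cell markers all had a lower mean in the esculetin livers, with sums of 208 to 234 CPM in the controls and 170 to 209 CPM with esculetin, and edgeR called none of them. The red cell markers ranged from 163 to 793 CPM over the control livers and from 272 to 527 CPM with esculetin. Cholangiocyte markers summed to 28.5 to 33.5 CPM in the control livers and 24.3 to 31.8 CPM with esculetin. Neutrophil markers stayed at or under 1.17 CPM with Ly6g at 0, and pancreatic markers at or under 0.129 CPM with Pnlip and Cel at 0.

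In the cells, 1 marker of the cholangiocyte list, Spp1, which macrophages also express, was at 917.8, 813.4 and 796.7 CPM with DMSO and at 4793, 7442 and 9730 CPM with esculetin, while Krt19 and Sox9 of that list had no count. Retn of the adipocyte list was at 2.69, 1.45 and 0.681 CPM and then at 0, 0 and 0.112 CPM, and Plin1 and Cidec had no count, so Lpl at 976 CPM or more stood beside fat cell markers at or near 0.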
